A study of Mus musculus with 2 samples.

Results

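The 100 spots of a mouse brain tissue sample with the highest share of transcripts from bone and connective tissue, outside the spots richest in skeletal muscle, were described here from RNA and from open chromatin. The count matrix held 1993 spots. The 200 spots with the highest share of UMIs (unique molecular identifiers, 1 for each captured RNA molecule) in 9 muscle genes, namely Acta1, Ttn, Tnnt3, Tnnc2, Myl1, Myh3, Myh8, Car3 and Cox8b, were left out. The other 1793 spots were ranked by their share of UMIs in 6 score genes, Col1a1, Col1a2, Col3a1, Dcn, Lum and Ibsp. The 100 highest are called members below, and the 896 spots of the lower part of the same ranking are the comparison spots.

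SPARC-seq was used in this series to read RNA and accessible chromatin under shared barcodes in brain tissue of the mouse at E18.5. The series held 1 polyA RNA library and 1 chromatin library, both of strain background C57BL/6 and of the genotype Ctcf homozygous mutation, with the allele CTCF-R567W made by CRISPR/Cas9. Members and comparison spots came from these same libraries and shared that genotype, so no effect of the allele could be measured, and a wild-type library of this assay was not analysed here. With 1 library for each assay there was no replicate check and no test was made. The intervals are exact 95% intervals of counting error alone. A spot is read here from its barcode, a pair of segments of 8 bases each, and may hold several cells, so that fewer cells of a type and less RNA per cell cannot be told apart.

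Bone and loose connective tissue are built by mesenchymal cells that secrete fibrillar collagen. Osteoblasts, the cells that form bone, lay down type I collagen with non-collagen proteins such as bone sialoprotein (Ibsp) and then mineralise it with the help of alkaline phosphatase (Alpl), under the transcription factors Runx2 and Sp7. Fibroblasts make type I and type III collagen together with small leucine-rich proteoglycans such as decorin (Dcn) and lumican (Lum), which bind collagen fibrils. At the head these cells form the flat bones of the skull, the dermis and the meninges.

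The members were chosen on these RNA values, so the score genes are given as a description. The share of UMIs in the 6 score genes ran from 0.344% to 1.77% in the members, with a median of 0.561%. It ran from 0% to 0.0967% in the comparison spots, with a median of 0.0624%, and 76 of these held no score UMI. The last member had 0.344037% and the first spot left out 0.343879%, so the border lay within a continuous slope. A count of 0 UMIs allows up to 3 UMIs, or 8.78 per 1000000 in all members together and 0.768 in all comparison spots. Score UMIs per spot were few, with 5 to 90 and a median of 17.5 in members.

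**Figure D1:**
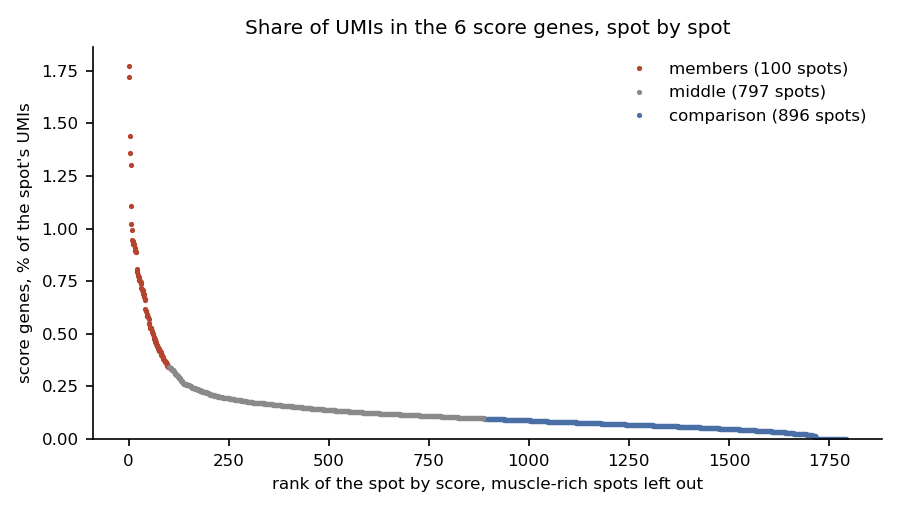
Share of a spot's UMIs in the 6 score genes (vertical axis, percent) against the rank of the spot by that share (horizontal axis) for the 1793 spots left after the muscle-rich spots were removed. Each point is 1 spot; the 100 members stand at the left on a steep slope down to 0.344%, and the 896 comparison spots at the right lie at or below 0.0967%.

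Col1a1 (chr11:94936224-94953042, plus strand, mm10), a chain of type I collagen, carried most of the choice. Below, a ratio is members over comparison spots, each in counts per 1000000 of its group, with its interval behind it. Col1a1 UMIs per spot were 3 to 63 (median 12) in members and 0 to 8 (median 1) in comparison spots, and the ratio was 12.8 (11.9 to 13.8). Every member held Col1a1, which was also seen in 77.9% of comparison spots. Col1a2, the other type I chain, had 0 to 24 (median 4) UMIs per member and 0 to 4 (median 0) per comparison spot. Shares of spots with a UMI are given as measured and, for equal depth, as the mean share once each spot is thinned to 900 UMIs. Col3a1, the type III chain of soft tissue, was found in 74% of members and 28.8% of comparison spots (34.7% and 6.64% at equal depth), with 160 against 305 UMIs. Ibsp (chr5:104299171-104311469), a protein of mineralising bone, was found in 23% of members and 4.13% of comparison spots (8.56% and 0.892% at equal depth), with 55 against 38 UMIs and a ratio of 16.6 (10.8 to 25.7). Dcn had 26 against 50 UMIs and Lum only 5 against 6, so collagen chains made up most of the score. When each gene was left out of the score and measured in the spots that the other 5 chose, its ratio was 6.81 (6.35 to 7.31) for Col1a1, 6.73 (5.99 to 7.54) for Col1a2, 3.64 (3.0 to 4.39) for Col3a1, 3.53 (2.13 to 5.64) for Dcn, 5.08 (1.14 to 18.2) for Lum and 12.6 (8.41 to 18.8) for Ibsp.

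Depth and library features differed between the groups. Members had a median of 3172 UMIs (1028 to 7262) and 17184.5 chromatin fragments, and comparison spots 4200 UMIs (1233 to 12083) and 20877.5 fragments. The transcript Gm42418 took 7.32% of member UMIs and 4.72% of comparison UMIs, and fragments under 150 bp made up 55.4% and 45.1%. The enrichment of insertions at transcription start sites (TSSs) was 13.2 and 13.7. The part of these differences in the results was not tested.

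Genes with at least 50 UMIs over both groups, outside the score and the muscle rule, are the genes counted below. Of these 10520 genes, 376 were at least 2-fold higher in members (3.57%) and 611 at least 2-fold lower (5.81%), and the median ratio was 0.95. With at least 20 UMIs these counts were 898 and 1216 of 13436 genes (6.68% and 9.05%). With at least 200 they were 56 and 73 of 4759 (1.18% and 1.53%). Within second barcode segments that held both groups, described further below, they were 179 and 205 of 3352 (5.34% and 6.12%). The excess of lower genes depended on the groups. With 50 members 534 genes were higher and 1240 lower of 10364 (5.15% and 12%). With 200 members these were 290 and 212 of 10846 (2.67% and 1.95%). A comparison with other spots of the members' 5 leading second segments gave 27 and 12 of 2341 genes (1.15% and 0.513%). Counts within the lists below are to be read against the shares of 3.57% and 5.81%. The 15 genes with the highest ratios were Col11a1, Alpl, Runx2, Pth1r, Aspn, Lmna, Fstl1, Lox, Sparc, Col12a1, Rcn3, Mfap4, Postn, Eln and Bgn, ranked after 20 counts per 1000000 were added to both groups. Most of them encode matrix proteins or proteins of bone-forming cells. Lmna, a nuclear lamina gene, had 154 against 504 UMIs with a ratio of 3.49 (2.9 to 4.19). For Fstl1, a secreted follistatin-like protein, the ratio was 3.55 (2.9 to 4.33), and for Rcn3, a calcium-binding protein of the secretory pathway, 3.83 (2.9 to 5.01). Some of the 15, among them Lox and Aspn, reached the minimum of 50 UMIs only with their member UMIs. As these RNA values come from the spots and the library that chose the members, they are descriptions of the spots.

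The other collagens were higher in RNA and in chromatin. Summed UMIs of 17 collagen genes outside the score numbered 450 in members and 1528 in comparison spots. Per 10000 UMIs the sum ran from 0 to 40.8 with a median of 11.7 in members and from 0 to 17.9 with a median of 3.46 in comparison spots, so single spots of both groups overlapped. The ratio of the sums was 3.37 (3.03 to 3.74), and 13 of the 15 collagens counted were at least 2-fold higher, against 3.57% of all genes counted. The median ratio of these 15 was 3.6. Members chosen without Col1a1 and Col1a2 in the score, of which 44 were the same spots, gave a ratio of 2.12, and other spots of the members' 5 leading second segments as comparison gave 1.81 (1.5 to 2.2). Type V collagen, which sits inside type I fibrils, had ratios of 3.95 (2.77 to 5.54) for Col5a1 and 3.45 (2.42 to 4.85) for Col5a2. Type VI collagen, a beaded filament around cells, had 4.77 (3.0 to 7.39) for Col6a1, 2.84 (2.02 to 3.93) for Col6a2 and 3.67 (2.62 to 5.06) for Col6a3. Col12a1, which decorates fibrils, had 44 against 110 UMIs and was found in 30% of members and 11.3% of comparison spots (9.28% and 2.59% at equal depth). Col24a1, a fibrillar collagen of developing bone, had 14 against 35 UMIs, a ratio of 4.57 (2.27 to 8.72). Col18a1, a collagen of vessel and epithelial basement membranes, and Col22a1, a collagen of tissue junctions, were the counted collagens under 2-fold, with 1.52 (0.877 to 2.5) and 1.77 (0.773 to 3.61).

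The same collagens held more chromatin fragments at their promoters. Fragments were counted within 1 kb of the TSS and expressed per 1000000 fragments in all such windows, in a library that the choice of members did not use. The 17 genes had 260 fragments against 945, a ratio of 2.09 (1.82 to 2.4). Of 15164 promoters with at least 50 fragments, the promoters counted, 639 were at least 2-fold higher (4.21%) and 1346 at least 2-fold lower (8.88%), with a median ratio of 0.974. Among the 11 collagen promoters counted, 6 were at least 2-fold higher and none 2-fold lower. The Col6a2 promoter had 25 against 51 fragments (3.73, 2.21 to 6.13), the Col16a1 promoter 39 against 80 (3.71, 2.46 to 5.5) and the Col12a1 promoter 25 against 62 (3.07, 1.85 to 4.95). The 6 score genes together had 65 fragments against 161, a ratio of 3.07 (2.27 to 4.12). Against other spots of the members' 5 leading second segments it was 1.89 (1.12 to 3.33).

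Enzymes and chaperones that process collagen were also higher. The 19 genes of this list had 904 UMIs against 3825, a ratio of 2.7 (2.51 to 2.91), and 12 of the 14 counted were at least 2-fold higher, against 3.57% of all genes counted. Sparc, a collagen-binding protein of bone and basement membranes, had 0 to 27 (median 4) UMIs per member and 0 to 11 (median 2) per comparison spot, and a ratio of 3.19 (2.89 to 3.52). Lox, which crosslinks collagen and elastin, had 23 against 30 UMIs and a ratio of 8.77 (4.86 to 15.6). Pcolce, an enhancer of procollagen cleavage, had 48 against 147 UMIs, and its promoter had 26 against 40 fragments with a ratio of 4.95 (2.9 to 8.31). The collagen chaperones Serpinh1 and Fkbp10 had RNA ratios of 2.39 (1.8 to 3.13) and 3.5 (2.31 to 5.19), and promoter ratios of 2.29 (1.36 to 3.74) and 2.4 (1.58 to 3.55). Some enzymes were near 1. Bmp1, a procollagen protease, had a ratio of 1.02 (0.675 to 1.5) and Plod3, a lysyl hydroxylase, 0.734 (0.373 to 1.31). Over the whole list promoter fragments had a ratio of 1.69 (1.51 to 1.88), with 6 of 16 counted promoters at least 2-fold higher, against 4.21% of all.

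Elastic fibre genes and matricellular genes, which encode secreted regulators of cell and matrix contact, had 706 UMIs against 2950, a ratio of 2.74 (2.52 to 2.97), with 12 of 14 counted at least 2-fold higher. Elastin (Eln) had 0 to 9 (median 1) UMIs per member and 0 to 6 (median 0) per comparison spot. The microfibril genes Mfap2 and Mfap4 had ratios of 3.27 (2.51 to 4.23) and 3.8 (2.87 to 4.97). Fbn2, the fetal fibrillin, was found in 73% of members and 47.7% of comparison spots (33.1% and 13.4% at equal depth), with a ratio of 2.71 (2.25 to 3.24). Periostin (Postn), a protein of periosteum and other dense connective tissue, had 42 against 107 UMIs and a ratio of 4.49 (3.06 to 6.47). Tenascin C (Tnc), which is also made by glia, had 38 against 430 UMIs and a ratio of 1.01 (0.705 to 1.41). The promoters of the list had a ratio of 1.76 (1.54 to 2.0).

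Among small leucine-rich proteoglycans, Bgn had 94 against 319 UMIs (3.37, 2.65 to 4.25), Aspn 25 against 36 (7.94, 4.57 to 13.6), Fmod 24 against 62 (4.43, 2.64 to 7.2) and Ogn 16 against 33 (5.55, 2.85 to 10.4). These bind collagen or growth factors in the matrix. Versican (Vcan), a large proteoglycan of brain and mesenchyme alike, was at 1.19 (0.932 to 1.5). Basement membrane genes were nearer to the median of all genes, with a ratio of 1.52 (1.37 to 1.69) over the list. Against other spots of the members' 5 leading second segments it was 1.12 (0.95 to 1.33), and the interval held 1. Within it Lama4 had 2.15 (1.58 to 2.88), Hspg2 2.04 (1.48 to 2.76), Col4a1 1.54 (1.29 to 1.83) and Lama2 0.651 (0.292 to 1.27). The matrix proteases and inhibitors stood at 1.57 (1.41 to 1.75), with Mmp14 at 2.9 (1.95 to 4.21) and Mmp2 at 3.54 (2.09 to 5.79), collagen-cleaving enzymes of which the first activates the second. Timp2 and Timp3, inhibitors of these proteases, had 1.16 (0.842 to 1.56) and 1.18 (0.863 to 1.58). Promoters of the protease list had a ratio of 1.73 (1.51 to 1.97), and 7 of 13 counted were at least 2-fold higher, against 4.21% of all promoters.

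Genes of bone-forming cells were present in the members, most of them in few molecules. The 18 genes of the list had 413 UMIs against 2517. Per 10000 UMIs their sum ran from 0 to 39.3 with a median of 9.92 in members and from 0 to 24.1 with a median of 5.88 in comparison spots, and the ratio was 1.88 (1.69 to 2.08). Of 7 genes counted, 3 were at least 2-fold higher, against 3.57% of all genes counted. Runx2 (chr17:44495987-44814797, minus strand), the transcription factor that starts the osteoblast program, was found in 32% of members and 11.9% of comparison spots (10.3% and 2.66% at equal depth) and had 50 against 117 UMIs, a ratio of 4.89 (3.44 to 6.86). Alkaline phosphatase (Alpl) was found in 25% of members and 5.92% of comparison spots (7.93% and 1.36% at equal depth), with 36 against 56 UMIs and a ratio of 7.35 (4.7 to 11.4). Pth1r, the receptor for parathyroid hormone and its related peptide, had 0 to 7 (median 0) UMIs per member, 56 against 142 in all, and a ratio of 4.51 (3.25 to 6.19). Among the genes of the list with most UMIs, Cdh11, a mesenchymal cadherin, was at 1.65 (1.33 to 2.04) and Smpd3, a sphingomyelinase of skeleton and brain, at 0.938 (0.679 to 1.27).

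Late bone genes were too sparse for single-gene statements in most spots. Ifitm5, a membrane protein of osteoblasts, had 13 against 15 UMIs with a ratio of 9.91 (4.34 to 22.3). Osteocalcin (Bglap), whose reads may be shared with its near copy Bglap2, had 3 against 4 UMIs and osteopontin (Spp1) 4 against 3. Sp7 (chr15:102356606-102367182), the factor downstream of Runx2, had 0 UMIs in both groups, so its RNA was not detectable at this depth. Its promoter held 13 against 43 fragments, a ratio of 2.3 (1.13 to 4.36), and Bglap had 12 against 28 promoter fragments, a ratio of 3.26 (1.51 to 6.62). The promoters of all 18 genes had 203 fragments against 1065, a ratio of 1.45 (1.24 to 1.69), and 2 of 9 counted were at least 2-fold higher, against 4.21% of all promoters counted. This promoter ratio was 1.1 within second segments and 1.07 (0.839 to 1.36) against other spots of the members' 5 leading second segments, where the interval held 1.

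Osteoclasts, the cells that resorb bone, were represented by 12 genes with 50 UMIs against 336, a ratio of 1.7 (1.24 to 2.3). Acp5, the tartrate-resistant phosphatase of osteoclasts, had 7 against 9 UMIs, while Calcr, the calcitonin receptor, had 0 against 33. Their promoters had a ratio of 1.21 (0.937 to 1.53). Cartilage genes had 572 UMIs against 3382 and a ratio of 1.93 (1.77 to 2.11), with 4 of 9 counted at least 2-fold higher. Col11a1, a fibrillar collagen of cartilage and of bone-forming cells, held 272 of those member UMIs and was found in 79% of members and 50.6% of comparison spots (45% and 14.6% at equal depth), a ratio of 4.73 (4.09 to 5.45). Col2a1, the main cartilage collagen, had 25 against 86 UMIs (3.32, 2.04 to 5.24), Col11a2 20 against 63 (3.63, 2.08 to 6.09), Acan, the cartilage proteoglycan aggrecan, 12 against 32 and Matn4, a matrix adaptor, 16 against 44. The cartilage factors Sox9 and Sox5, also active in neural cells, had 0.545 (0.145 to 1.45) and 0.948 (0.791 to 1.13). Col2a1 promoter fragments numbered 5 against 64, a ratio of 0.594 (0.187 to 1.46), below 1 although its interval held 1. The 5 tendon genes had 21 UMIs against 90.

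Transcription factors of mesenchyme were measured better in chromatin than in RNA. The 20 genes had 92 UMIs against 434, a ratio of 2.42 (1.91 to 3.04), and only 3 had enough UMIs to be counted. Prrx1, a factor of limb and craniofacial mesenchyme, had 34 against 118 UMIs (3.3, 2.18 to 4.86), and Tbx15, a factor of skeletal and dermal development, 14 against 72 (2.22, 1.16 to 3.98). Msx1, a homeobox factor of skull sutures and teeth, had 4 against 56 (0.817, 0.215 to 2.21). At their promoters the 20 genes had 251 fragments against 854, a ratio of 2.24 (1.93 to 2.58), and 6 of 9 counted were at least 2-fold higher, against 4.21% of all promoters. Against other spots of the members' 5 leading second segments the promoter ratio was 1.46 (1.15 to 1.87). Twist1, which acts in cranial sutures, had 2 against 8 UMIs but 29 against 56 promoter fragments, a ratio of 3.94 (2.43 to 6.28). Six2, a factor of head mesenchyme, had 26 against 58 fragments (3.41, 2.06 to 5.5), Foxc2 22 against 43 (3.89, 2.22 to 6.65), Foxd2 26 against 53 (3.73, 2.24 to 6.08) and Tbx15 17 against 29 (4.46, 2.3 to 8.39). Prrx1 promoter fragments were few, 5 against 39, with a ratio of 0.975 (0.30 to 2.48).

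Genes of the fibroblast surface were counted in both assays. Pdgfra, the receptor that marks many fibroblasts and also oligodendrocyte precursors, had 12 against 100 UMIs (1.37, 0.686 to 2.51) and 13 against 19 promoter fragments (5.21, 2.36 to 11.1). Pdgfrb, shared by fibroblasts and pericytes, had 21 against 128 UMIs (1.88, 1.12 to 2.99) and 25 against 57 fragments (3.34, 2.0 to 5.43). Thy1, a surface protein of fibroblasts and neurons, was at 0.677 (0.304 to 1.32) in RNA. The list of 12 stromal genes had an RNA ratio of 1.57 (1.25 to 1.96) and a promoter ratio of 1.83 (1.53 to 2.18). Against other spots of the members' 5 leading second segments the RNA ratio was 1.21 (0.832 to 1.77), with an interval that held 1, and the promoter ratio 1.43 (1.06 to 1.95). Meningeal fibroblast genes stood at 1.6 (1.18 to 2.14) and 1.3 (0.927 to 1.78), and fat cell genes at 1.55 (1.08 to 2.18) and 1.07 (0.806 to 1.41).

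Ligands and receptors of the growth factor pathways of bone were less distinct. The 26 BMP and TGF-beta genes had an RNA ratio of 1.27 (1.12 to 1.44), with 2 of 13 counted at least 2-fold higher against 3.57% of all genes counted, and a promoter ratio of 1.35 (1.22 to 1.49). Against other spots of the members' 5 leading second segments the RNA ratio was 1.17 (0.951 to 1.44) and the promoter ratio 1.08 (0.917 to 1.27), and both intervals held 1. Bmp4, a bone-inducing ligand, had 12 against 30 UMIs (4.57, 2.13 to 9.2), Bmp6 13 against 63 (2.36, 1.19 to 4.33), and the receptor gene Tgfbr2 18 against 82 (2.51, 1.42 to 4.22). The broadly used receptor genes Bmpr2, Bmpr1a and Acvr1 had 1.08 (0.803 to 1.43), 1.3 (0.854 to 1.91) and 0.915 (0.617 to 1.31). The 15 WNT genes were at 1.32 (1.09 to 1.59) in RNA, with 1 of 9 counted at least 2-fold higher, namely the secreted antagonist Dkk2 at 2.86 (1.47 to 5.2). FGF and PDGF genes were at 1.19 (1.02 to 1.38), and at 1.05 (0.823 to 1.35) on the same 5 segments, where the interval held 1, with Fgfr1 at 1.5 (1.14 to 1.96), Fgfr2 at 1.06 (0.819 to 1.35) and Pdgfa at 0.759 (0.408 to 1.3).

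Insulin-like growth factor genes had an RNA ratio of 1.96 (1.86 to 2.07), with 3 of 10 counted at least 2-fold higher, against 3.57% of all genes counted. Most of their UMIs came from a pair of imprinted neighbours. Their promoter ratio was 1.1 (0.907 to 1.32), and the interval held 1. Against other spots of the members' 5 leading second segments the RNA ratio was 1.34 (1.23 to 1.47). Against the muscle-rich spots left out by the rule it was 0.807 (0.763 to 0.852). Igf2, a fetal growth factor, had 0 to 13 (median 2) UMIs per member and 0 to 8 (median 1) per comparison spot, a ratio of 2.14 (1.88 to 2.42). H19, the non-coding transcript beside it, had 1 to 27 (median 8) and 0 to 22 (median 5), a ratio of 2.24 (2.09 to 2.4). The H19 promoter held 26 against 54 fragments (3.66, 2.2 to 5.95), and the Igf2 promoter 6 against 38 (1.2, 0.415 to 2.86). Igfbp4 and Igfbp2, binding proteins of these factors, were at 2.35 (1.67 to 3.24) and 1.74 (1.36 to 2.21), and the receptor gene Igf1r at 1.15 (0.947 to 1.39). The other imprinted growth genes together were at 1.08 (1.03 to 1.13).

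Markers of other cell types moved with the groups, and their part in the results was not tested. The members were not free of neural RNA. The 14 neuron genes had 1697 UMIs against 28074 and ran per 10000 UMIs from 15.8 to 88.7 with a median of 48.7 in members and from 15.3 to 139 with a median of 70.8 in comparison spots. Their RNA ratio was 0.691 (0.658 to 0.726), and all 14 were counted, with ratios below 1, 2 of them at least 2-fold lower (Elavl4 at 0.465 (0.289 to 0.712) and Nefl at 0.498 (0.293 to 0.798)). At promoters the neuron genes had 98 fragments against 1719, a ratio of 0.434 (0.35 to 0.532), with 9 of 13 counted at least 2-fold lower, against 8.88% of all promoters counted. Within second barcode segments this promoter ratio was 0.661 and the RNA ratio 0.921. Tubb3, a neuronal tubulin, had an RNA ratio of 0.624 (0.515 to 0.749) and a promoter ratio of 0.293 (0.132 to 0.565), and Rbfox3, the splicing factor known as NeuN, 0.815 (0.678 to 0.972) and 0.217 (0.0441 to 0.653). Radial glia genes stood at 0.783 (0.694 to 0.88) in RNA and 0.808 (0.636 to 1.02) at promoters, and Schwann cell genes at 0.908 (0.545 to 1.43) and 1.1 (0.756 to 1.57).

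RNA of muscle, blood and epithelium was also higher in members, while the intervals of their promoter ratios held 1. The 9 muscle genes of the rule, capped by the choice of spots, ran from 10.4 to 77.7 with a median of 53.1 per 10000 UMIs in members and from 4.22 to 71.3 with a median of 31.3 in comparison spots. They were at 1.69 (1.6 to 1.77) in RNA and 0.758 (0.507 to 1.1) at promoters, and 13 other muscle genes at 1.57 (1.48 to 1.67) and 1.19 (0.948 to 1.47). Red cell genes, of which 9 of 10 were in the matrix, were at 1.68 (1.62 to 1.74) in RNA, and their sum ran from 32 to 682 with a median of 82.1 per 10000 UMIs in members and from 13.8 to 566 with a median of 49.8 in comparison spots. Their promoters were at 0.834 (0.464 to 1.4). Macrophage genes, all 13 of them seen in members and each with at most 18 UMIs there, were at 2.03 (1.64 to 2.49) and 0.963 (0.701 to 1.3), other epithelial genes such as Krt8, Krt18 and Wfdc2 at 2.19 (1.75 to 2.7) and 1.35 (0.998 to 1.79), and pituitary hormone genes at 1.96 (1.55 to 2.44) and 1.23 (0.712 to 2.0). Against other spots of the members' 5 leading second segments the RNA ratio turned for other epithelial genes, at 0.509 (0.387 to 0.669), and for pituitary genes, at 0.231 (0.179 to 0.295). Of the pituitary genes, Gh and Pomc had 34 against 156 and 45 against 323 UMIs, and Prl and Lhb 0 in members. Skin epithelium genes were at 1.6 (1.1 to 2.26) and 1.05 (0.746 to 1.45). Choroid plexus genes were lower in RNA, at 0.567 (0.504 to 0.636). Endothelial genes were at 1.05 (0.881 to 1.25) in RNA and 1.43 (1.14 to 1.77) at promoters, and mural cell genes at 1.0 (0.748 to 1.32) and 1.46 (1.1 to 1.9), with an RNA ratio of 1.72 (1.01 to 3.06) on the same 5 segments. There the promoter ratios were 1.16 (0.813 to 1.68) for endothelial and 1.07 (0.698 to 1.67) for mural cell genes, and both intervals held 1. By these markers the members are spots of mixed tissue, not pure bone, with more collagen and bone-forming cell RNA than the comparison spots. The sum of bone-forming cell genes had a median of 9.92 per 10000 UMIs in members. Medians were 56.1 for the score genes that chose the members, 48.7 for neuron genes and 53.1 for muscle genes of the rule. They were 82.1 for red cell genes and 3.53 for endothelial genes. The lists differ in number of genes and in UMIs per gene, so the order of these sums does not measure how much of each tissue a spot held.

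**Figure D2:**
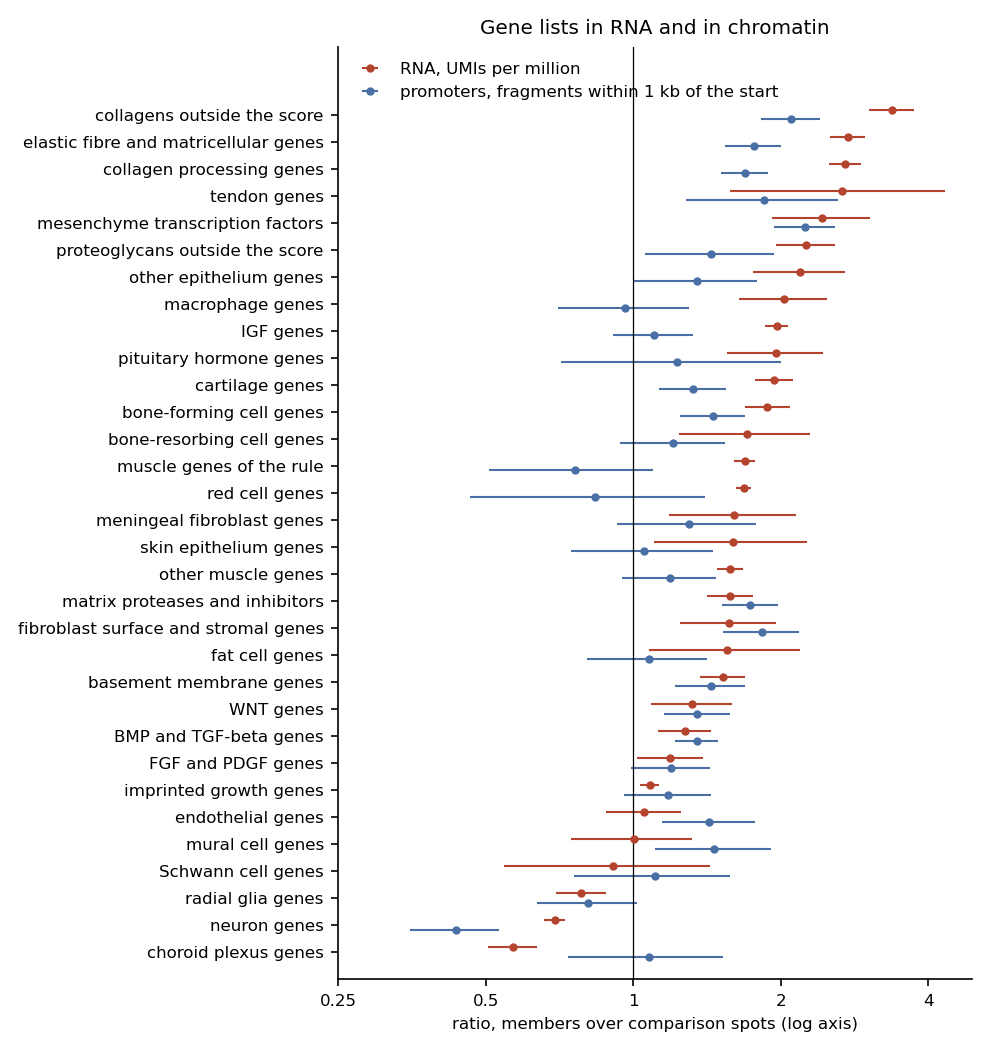
Ratio of members over comparison spots (horizontal log axis) for each gene list outside the score, in RNA (red, UMIs per 1000000) and at promoters (blue, fragments within 1 kb of the TSS per 1000000). Points are ratios of sums over the list and bars 95% intervals of counting error; other collagens stand highest in RNA at 3.37, mesenchyme transcription factors highest at promoters at 2.24, and neuron genes lowest at promoters at 0.434.

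The 10 genes with the lowest ratios were Id4, Med10, Klf8, Grin1, Comtd1, Odc1, Snap91, Rhov, Lzts1 and Tm2d3. Id4, an inhibitor of differentiation in neural progenitors, had 40 against 1202 UMIs and a ratio of 0.381 (0.271 to 0.521), and Snap91, a clathrin adaptor of synapses, 38 against 999 and 0.435 (0.306 to 0.601). Grin1, a glutamate receptor subunit, had 16 against 487 UMIs (0.376, 0.213 to 0.616), and Odc1, the first enzyme of polyamine synthesis, 8 against 281 (0.326, 0.139 to 0.65). The other 6 had 1 to 7 UMIs in members and 110 to 251 in comparison spots. Promoter fragments were lower for Snap91 (0.252, 0.10 to 0.529), while for Id4 the ratio was 0.995 (0.704 to 1.38).

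RNA and chromatin were then compared over classes of genes and along the ranking of spots. The promoters of the 376 genes at least 2-fold higher in RNA had 6468 fragments in members and a summed ratio of 1.42 (1.38 to 1.45), those of the 611 lower genes 0.946 (0.926 to 0.967), and those of the genes between 0.987 (0.983 to 0.992). The spots below the members were divided into 10 bins of 169 or 170 spots by falling score. Score gene promoters had 201 fragments per 1000000 in members (155 to 256), 130.2 in bin 1, 91.9 in bin 2, and 45.5 to 83.1 in the other 8. Bin 10, where the score share was lowest, had 83.1, so below bin 2 the promoter counts did not follow the RNA order. Promoters of mesenchyme factors had 777, 607 and 413 in members, bin 1 and bin 2, and neuron promoters 303, 472 and 551. Over the 40 second barcode segments with at least 20 non-muscle spots, the Spearman rank correlation of score RNA with score promoter fragments was 0.068. With neuron promoter fragments it was -0.262. The score share of these segments reached 0.562%, and all segments above that share fell under the minimum of 20 spots. Those left out held 11, 2 and 5 spots, with 348, 1890 and 34.4 score promoter fragments per 1000000. The correlations therefore do not cover the segments with the highest score.

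**Figure D3:**
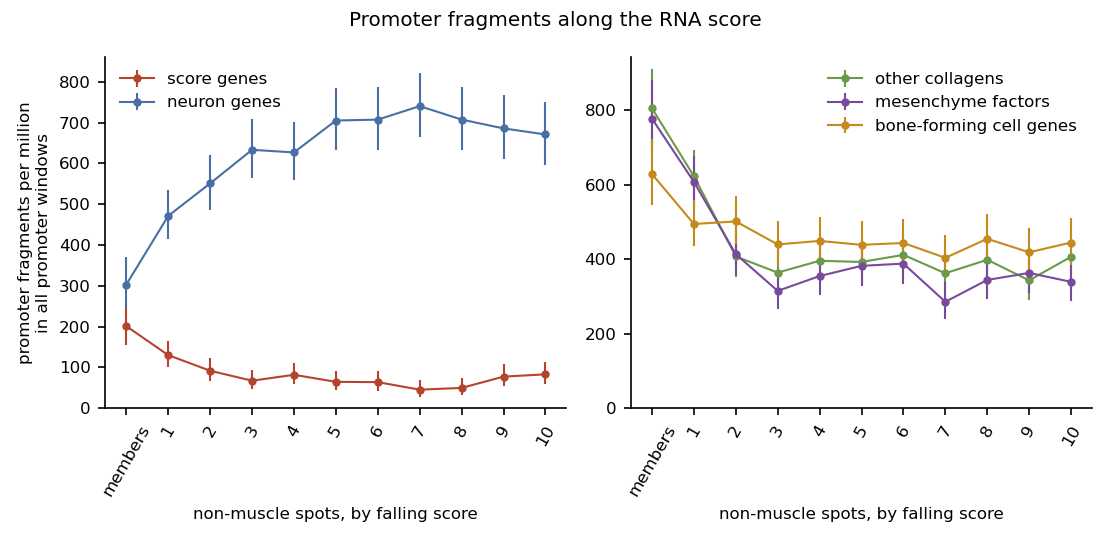
Promoter fragments per 1000000 (vertical axes) in the members and in 10 bins of the other non-muscle spots by falling RNA score (horizontal axes), for score and neuron genes (left) and for other collagens, mesenchyme factors and bone-forming cell genes (right). Points are sums over a list and bars 95% Poisson intervals; the mesenchymal lists are highest in members and level off from bin 3 on, while neuron genes are lowest in members at 303.

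Single accessible regions were examined next. Of 43397 peaks with at least 50 cut sites over both groups, 4454 were at least 2-fold higher in members (10.3%) and 10245 at least 2-fold lower (23.6%), with a median ratio of 0.882. This balance turned where barcode segments were matched, with 702 higher (14.8%) and 531 lower (11.2%) of 4753 peaks within second segments. Against other spots of the members' 5 leading second segments it was 289 higher (6.33%) and 82 lower (1.8%) of 4567. The size of the groups changed as well. Members had 847461 cut sites in peaks, all comparison spots 6699244, and the other spots of those 5 segments 472184. The part of group size in this turn was not tested. All these shares of peaks hold much counting noise, since a peak had few cut sites in members and both ends of a fragment count as cut sites. The values of the 10 peaks with the highest ratio, as the highest of many, overstate the difference. Peak 1, chr8:103779319-103780254 (mm10), lay between genes, 321838 bases before the start of Cdh5, and had 39 against 26 cut sites and 20 fragments against 15, a ratio of 10.6 (5.16 to 22.3). Peak 2, chr8:92491312-92492231, lay 134023 bases beyond the start of Irx5 and had 24 fragments against 19, a ratio of 10.1 (5.28 to 19.4). Peak 4, chr1:162217167-162218063, covered the start of Dnm3os, a non-coding transcript in an intron of Dnm3 that hosts microRNAs, and had 26 fragments against 22, a ratio of 9.41 (5.13 to 17.4). Peak 8, chr2:132006449-132007297, lay in an intron of Rassf2 and had 28 fragments against 24, a ratio of 9.29 (5.19 to 16.7). The other 6 were in or near Tacc1, Xdh, Fancc, Lrrc28, Pdzd2 and Slc25a33, with 14 to 21 fragments in members.

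Peaks near score and bone genes were picked from the 200 highest after their values were seen, and most of the 200 had a nearest gene outside all lists. The region of Col1a1 held 3 of them, at its promoter (17 fragments against 16, a ratio of 8.46, 4.02 to 17.9), 2588 bases before its start (15 fragments against 17, a ratio of 7.02, 3.27 to 14.9) and 53171 bases before it (18 fragments against 24, a ratio of 5.97, 3.05 to 11.5). An intron of Sp7 held another, chr15:102362569-102363410, with 14 fragments against 22, a ratio of 5.07 (2.4 to 10.4). Over the starts of bone-forming cell genes and mesenchyme factors, whether or not among the 200, peaks had fragment ratios from 0.468 at Foxd1 (2 against 34) and 1.09 at Smpd3 to 5.62 at both Bglap and Foxd2. Of the 200, 24 (12%, 7.84 to 17.3) had their centre within 1 kb of a TSS, against 36.9% of every 20th peak counted and 20% (14.7 to 26.2) of the 200 lowest.

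The letters of the RUNX motif, the site bound by Runx2 and its relatives, had the highest share among the highest peaks relative to their share in all peaks, of 6 motifs searched. TGTGGT, or ACCACA on the other strand, stood in the 300-base centres of 99 of the 200 highest peaks, or 49.5% (42.4 to 56.6), and in 18.2% of all 43362 centres searched. Further down the ranking the share was 29.9% (26.7 to 33.2) for peaks 201 to 1000, 21.3% (20.1 to 22.6) for peaks 1001 to 5000 and 17.5% (17 to 18) from peak 20001 on. Among peaks over 1 kb from a TSS it was 52.3% of 176 among the 200 highest and 21.8% of all, and the part of distance from a TSS in the shares was not tested. The 200 lowest peaks held it in 24% (18.3 to 30.5). The letters were not used to rank the peaks. Most of the 200 highest reached the minimum of 50 cut sites only with their member counts, such as peak 5 with 28 against 22. Together they had 6585 cut sites in members and 7896 in comparison spots. The 200 lowest had 0 in members and 21454 in comparison spots, so they reached the minimum through the comparison spots alone. The part of this minimum in the shares was not tested. The GC content of the 200 highest had a median of 54.2%, against 55% of every 20th peak, and its part in the shares was not tested.

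The other motifs had smaller ratios of these shares. The TWIST letters CAGATG were in 34% (27.5 to 41) of the 200 highest and 21% of all centres, the AP-1 letters TGANTCA in 15.5% (10.8 to 21.3) and 7.85%, and the TEAD letters GGAATG in 22.5% (16.9 to 28.9) and 15%. The SOX letters ACAAAG were in 14.5% (9.93 to 20.2) and 19.9%. A short core of the CTCF motif, CCANNAG, was in 69.5% (62.6 to 75.8) of the 200 highest and 60.7% of all. Over 1 kb from a TSS the shares among the highest peaks and all peaks were 35.8% and 26.2% for TWIST, 17.6% and 9.93% for AP-1, and 23.3% (17.3 to 30.2) and 17.3% for TEAD, where the interval reached the share of all. For CTCF they were 69.9% (62.5 to 76.6) and 63.7%, and the interval reached the share of all as well. For SOX they were 14.8% and 24.1%. All were searched on both strands. These are matches of letters, not measured binding, and the short motifs may overlap each other.

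**Figure D4:**
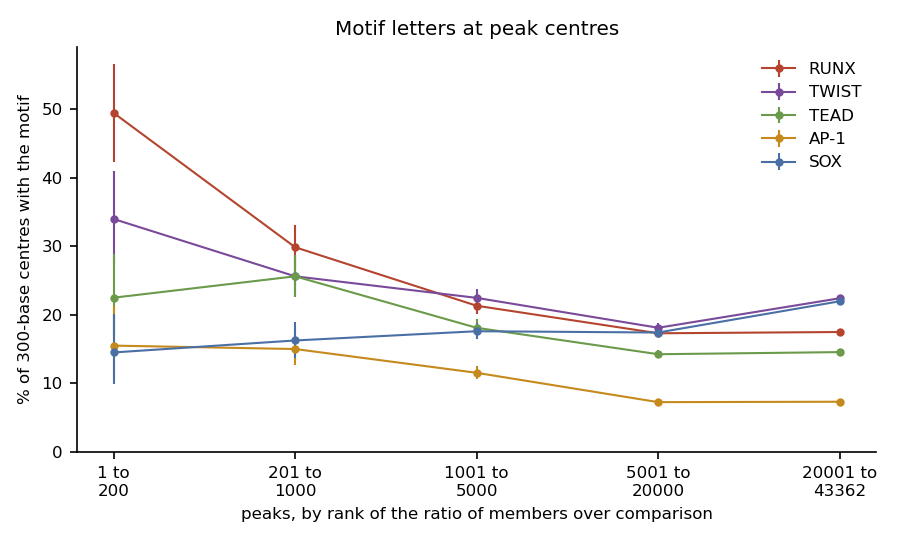
Percent of 300-base peak centres that hold the letters of each motif (vertical axis) in 5 classes of peaks ranked by the ratio of members over comparison spots (horizontal axis, highest ratio at the left). Points are shares and bars 95% Clopper-Pearson intervals; RUNX starts at 49.5% in the 200 highest peaks and levels off at 17.3%, while SOX is lowest among the highest peaks.

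The sequences of the 5 highest peaks with a RUNX match are shown as examples of such matches, as 300 bases at the peak centre in GRCm38 (mm10). They are named by the nearest protein-coding start, which does not assign the peak to that gene. Peaks 3 and 16 lay between genes, and peaks 12, 13 and 15 in introns of Rad51b, Kcnq1 and Cep164. Capitals mark the RUNX letters.
Peak 3, near Tacc1, chr8:25343247-25343546, plus strand: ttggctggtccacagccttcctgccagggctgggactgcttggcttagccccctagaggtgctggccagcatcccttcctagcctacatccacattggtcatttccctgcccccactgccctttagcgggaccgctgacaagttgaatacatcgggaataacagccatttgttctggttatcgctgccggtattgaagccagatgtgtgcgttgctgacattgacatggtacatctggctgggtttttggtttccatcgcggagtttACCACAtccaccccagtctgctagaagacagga
Peak 12, near Rad51b, chr12:79354679-79354978, plus strand: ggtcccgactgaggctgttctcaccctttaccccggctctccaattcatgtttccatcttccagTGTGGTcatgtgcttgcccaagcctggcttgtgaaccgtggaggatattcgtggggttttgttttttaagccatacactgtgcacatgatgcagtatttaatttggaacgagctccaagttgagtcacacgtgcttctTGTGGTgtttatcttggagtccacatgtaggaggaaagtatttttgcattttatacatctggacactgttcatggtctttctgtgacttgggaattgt
Peak 13, near Cdkn1c, chr7:143399983-143400282, plus strand: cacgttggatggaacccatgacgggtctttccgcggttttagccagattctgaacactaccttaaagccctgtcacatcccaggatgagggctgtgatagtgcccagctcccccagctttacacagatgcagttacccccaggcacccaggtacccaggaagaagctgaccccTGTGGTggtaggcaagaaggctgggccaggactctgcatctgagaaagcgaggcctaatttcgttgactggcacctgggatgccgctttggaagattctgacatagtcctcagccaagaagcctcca
Peak 15, near Cep164, chr9:45795904-45796203, plus strand: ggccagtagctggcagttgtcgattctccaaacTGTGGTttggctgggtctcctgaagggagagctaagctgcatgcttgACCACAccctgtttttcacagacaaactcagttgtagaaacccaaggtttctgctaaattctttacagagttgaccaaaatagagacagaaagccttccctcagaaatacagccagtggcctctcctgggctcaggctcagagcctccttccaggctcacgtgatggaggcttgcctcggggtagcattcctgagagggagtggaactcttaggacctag
Peak 16, near Cdh5, chr8:104022954-104023253, plus strand: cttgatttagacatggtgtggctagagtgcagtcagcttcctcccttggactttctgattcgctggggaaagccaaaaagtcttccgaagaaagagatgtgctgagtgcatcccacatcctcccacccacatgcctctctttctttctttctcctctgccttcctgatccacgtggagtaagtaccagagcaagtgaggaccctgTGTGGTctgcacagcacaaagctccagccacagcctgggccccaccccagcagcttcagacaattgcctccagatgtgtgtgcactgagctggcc

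Peak 3 had 17 fragments against 11, a ratio of 12.3 (5.44 to 29.1), and peak 12 had 19 fragments against 17, a ratio of 8.9 (4.38 to 18.2). Peak 13 had 16 fragments against 16, a ratio of 7.96 (3.73 to 17). For peak 15 the counts were 14 against 13 fragments and for peak 16 38 against 38. Peaks 12 and 15 held the letters at 2 places, and the other 3 at 1.

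The promoters of Col1a1 and Runx2 are shown beside them. The Col1a1 promoter peak, number 17 of the ranking, held no RUNX match. It had 1 match of the TATA box letters TATAAA (capitals), whose first letter stands on the annotated start used here. These letters, or their reverse, were in 6.76% of all centres. Its cut sites numbered 32 against 28.
Col1a1 promoter peak, chr11:94935939-94936238, plus strand: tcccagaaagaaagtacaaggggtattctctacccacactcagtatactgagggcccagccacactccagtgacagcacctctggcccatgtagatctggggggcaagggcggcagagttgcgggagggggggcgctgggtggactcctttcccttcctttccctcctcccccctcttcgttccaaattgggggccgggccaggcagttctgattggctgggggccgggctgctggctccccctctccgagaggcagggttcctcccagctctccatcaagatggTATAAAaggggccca
The 250 bases before the Runx2 start in the RefSeq table (GRCm38.p6) held 1 RUNX match (capitals), and 16.8% of all 32851 promoter windows of that table, which run 50 bases further, held at least 1. This start differs from the GENCODE start used above, chr17:44814797, which lies within the bases shown. The match lies past that GENCODE start, inside the gene as given above.
Runx2 promoter, chr17:44814628-44814877, minus strand: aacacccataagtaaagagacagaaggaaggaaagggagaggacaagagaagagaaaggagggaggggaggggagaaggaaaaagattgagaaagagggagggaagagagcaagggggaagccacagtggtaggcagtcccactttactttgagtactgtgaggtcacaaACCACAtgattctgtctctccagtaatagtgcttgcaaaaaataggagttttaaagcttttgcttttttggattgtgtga

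The members differed among themselves. Ibsp, which marks mineralising bone, was found in 23 members, with 1 to 9 UMIs each and 55 in all, and 14 of these held 1 UMI. They had a median of 4067 UMIs against 2819 in the other 77, so the chance of seeing an Ibsp UMI was not equal. Bone-forming cell genes, which do not include Ibsp, had 190 UMIs against 223 in the members with and without Ibsp, a ratio of 1.99 (1.63 to 2.43). Pth1r had 30 against 26 (2.7, 1.54 to 4.75), Runx2 23 against 27 (1.99, 1.09 to 3.61) and Ifitm5 9 against 4 (5.27, 1.47 to 23.4). Spp1 had 4 UMIs in the members with Ibsp and 0 in the others. Col12a1 was at 2.34 (1.24 to 4.43).

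Matrix lists had lower ratios than the bone-forming list in this split, a difference that was not tested. Other collagens were at 1.37 (1.12 to 1.66) in RNA and 0.904 (0.685 to 1.18) at promoters, collagen processing genes at 1.56 (1.36 to 1.79) and 0.824 (0.657 to 1.03), and elastic fibre and matricellular genes at 1.03 (0.875 to 1.21) in RNA. Single genes chosen after their values were seen were Mfap4 with 19 against 54 UMIs (0.823, 0.461 to 1.41) and Eln with 29 against 72 (0.943, 0.59 to 1.47). The members with Ibsp also had more of the whole score, with 0.944% of UMIs against 0.561%, a ratio of 1.68 (1.55 to 1.83), and its part in the other ratios was not tested. Red cell RNA was lower in the members with Ibsp, at 0.499 (0.456 to 0.545). In chromatin, promoters of bone-forming cell genes had 81 fragments against 122, a ratio of 1.38 (1.03 to 1.84), mesenchyme factors 1.02 (0.777 to 1.34) and neuron genes 0.565 (0.331 to 0.925).

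The muscle-rich spots left out by the rule were compared next. Their score share was 0.292%, against 0.676% in members, and their muscle share 1.29% against 0.543%. In RNA the members were higher for bone-forming cell genes, with a ratio of 1.64 (1.45 to 1.86), for cartilage genes at 1.49 (1.35 to 1.65), for collagen processing genes at 1.51 (1.39 to 1.64) and for other collagens at 1.35 (1.2 to 1.51). Elastic fibre and matricellular genes were at 1.36 (1.24 to 1.49) and pituitary hormone genes at 1.56 (1.2 to 2.01). Fat cell genes were lower, at 0.351 (0.244 to 0.493), and so were other epithelial genes at 0.681 (0.544 to 0.846). Insulin-like growth factor genes at 0.807 (0.763 to 0.852) and basement membrane genes at 0.854 (0.764 to 0.953) were lower as well. In chromatin the groups were closer. Score gene promoters were at 1.14 (0.846 to 1.52), mesenchyme factors at 1.03 (0.888 to 1.18), bone-forming cell genes at 1.18 (0.997 to 1.38) and neuron genes at 1.25 (0.981 to 1.58), while muscle gene promoters were at 0.478 (0.317 to 0.699).

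The members were gathered on few barcode segments. They lay on 20 of the 48 second segments, and 64 of 100 (exact Clopper-Pearson interval 53.8% to 73.4%) were on 5 of them. On 1 of these, all 11 spots outside muscle were members. The first segments showed no such gathering, with members on 48 of 50 and 18 on the 5 with most. Those 5 second segments held 6 comparison spots and 26 muscle-rich spots, and 53 members were on 7 second segments without any comparison spot. What a second segment stands for in the tissue is not given in the sources used here. Tissue position, any effect of the segment itself and tissue type cannot be told apart for these members.

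**Figure D5:**
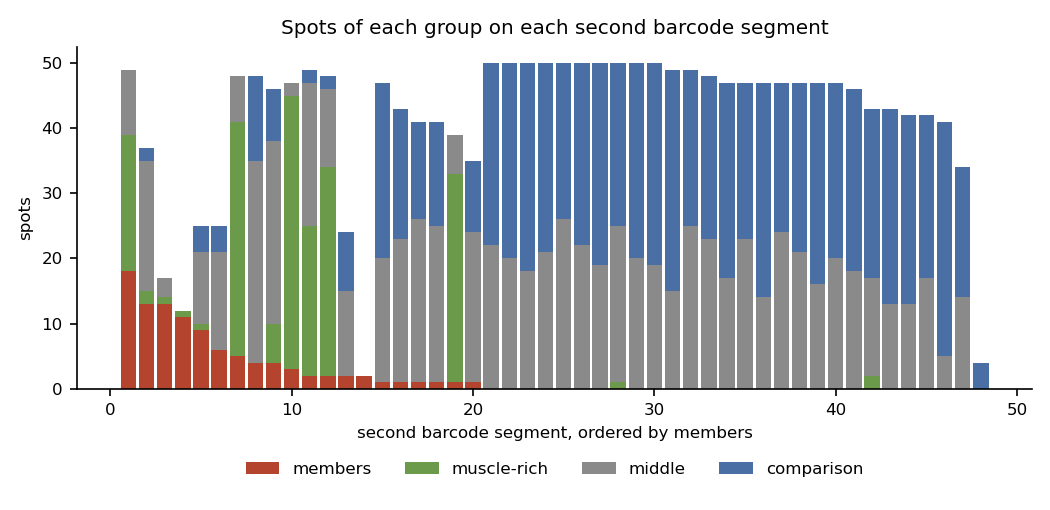
Number of spots (vertical axis) on each of the 48 second barcode segments (horizontal axis), ordered by their members; colours give members, muscle-rich, middle and comparison spots. The first 5 bars hold 64 of the 100 members and only 6 comparison spots, and the 28 segments without members hold most comparison spots.

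A comparison on the same segments was made with the 50 non-muscle spots outside the members on those 5 second segments. Their score share was 0.187%, and they had a median of 3917 UMIs. The ratios of the matrix lists were nearer to 1 than against the lower part of the ranking. Other collagens were at 1.81 (1.5 to 2.2) in RNA and 1.67 (1.3 to 2.15) at promoters, collagen processing genes at 1.87 (1.63 to 2.14) and 1.27 (1.06 to 1.52), and mesenchyme factors at 1.63 (1.08 to 2.5) and 1.46 (1.15 to 1.87). Bone-forming cell genes were at 1.58 (1.31 to 1.92) in RNA and 1.07 (0.839 to 1.36) at promoters, where the interval held 1. Neuron genes were at 0.885 (0.82 to 0.955) and 0.659 (0.487 to 0.895). Several lists crossed 1 in RNA. Pituitary hormone and other epithelial genes turned, as given above. The intervals of the rest that crossed held 1, namely skin epithelium genes at 0.674 (0.409 to 1.12), macrophage genes at 0.924 (0.679 to 1.27), meningeal fibroblast genes at 0.936 (0.595 to 1.49), WNT genes at 0.922 (0.69 to 1.24), radial glia genes at 1.14 (0.938 to 1.4) and choroid plexus genes at 1.01 (0.837 to 1.22). Other lists stayed above 1 in RNA with an interval that now held 1, namely the basement membrane, stromal, BMP and TGF-beta, and FGF and PDGF genes given above, tendon genes at 1.36 (0.597 to 3.37), fat cell genes at 1.23 (0.685 to 2.29) and imprinted growth genes at 1.05 (0.979 to 1.13). The same held at promoters for the bone-forming cell, BMP and TGF-beta, endothelial and mural cell genes given above, for cartilage genes at 1.14 (0.882 to 1.48), basement membrane genes at 1.16 (0.892 to 1.52), proteoglycans outside the score at 1.19 (0.729 to 2.0), tendon genes at 1.74 (0.914 to 3.54) and WNT genes at 1.1 (0.859 to 1.42). At promoters radial glia genes crossed to 1.46 (0.954 to 2.28), macrophage genes to 1.04 (0.634 to 1.74), IGF genes to 0.864 (0.651 to 1.15), FGF and PDGF genes to 0.953 (0.714 to 1.28) and Schwann cell genes to 0.993 (0.56 to 1.81), all with intervals that held 1.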

How the data were processed

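RNA and open chromatin were measured by SPARC-seq in 1 library each, of one genotype. The deposited matrix holds raw UMI counts per gene and raw cut-site counts per peak for 1993 barcodes, and the deposited fragment table holds fragment counts per barcode with duplicates collapsed, both made with cellranger-arc 2.0.1 on mm10 per the file headers. The submitters' processing notes also name Seurat 4.0, whose use is not given in the sources used here, nor is the choice of the 1993 barcodes. Of 52942843 fragments, 47109447 carried these barcodes, which both assays share. Doublets were not called, since a spot is a small region of tissue. No reads were processed again. Counts without further normalization depend on depth, so sums over spots were divided by the UMI total, the promoter fragment total or the peak cut-site total of the group.

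Ratios have conditional binomial intervals, sums exact Poisson intervals and shares exact Clopper-Pearson intervals, all at 95%. Promoters were windows of 1 kb on each side of the TSS, the most upstream start of the principal transcripts in GENCODE M21. Genes, promoters and peaks needed at least 50 counts over both groups, and a ratio of at least 2 was counted as higher or lower. No test was made, as there is 1 library per assay and spots are not replicates. Motifs were searched in 300 bases at peak centres, and peaks on contigs outside the chromosomes were left out of that search. Scripts ran in Python 3.11.15 with numpy 2.4.6, scipy 1.17.1, pandas 2.3.3 and matplotlib 3.10.9, and were tested on simulated data.

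The members and the 33 gene lists were chosen with earlier results of these data known. The genes to name were the score genes, the 15 highest and 10 lowest ratios after 20 counts per 1000000 were added, the 3 genes of each list with most UMIs, further genes of known role in the bone, cartilage, collagen and mesenchyme lists with at least 20 UMIs, and the 10 highest peaks. Not all of them are printed, since most lists of other cell types are given as sums alone, and some are not reported here. Other genes and peaks were chosen after their values were seen, among them Fmod, Ogn, Mmp2, Bmp4, Bmp6, Tgfbr2, Dkk2, Pdgfrb, Igfbp4, Elavl4, Nefl, Bglap, Spp1, Sp7, Acp5 and the peaks below the tenth. Alternatives were the number of members and of muscle-rich spots left out, a minimum of 2000 UMIs, other comparison spots, scores without Ibsp or without Col1a1 and Col1a2, totals without Gm42418 and mitochondrial genes, the mean over spots, windows of 500 bp and 2 kb, all fragments as total, minimums of 20 and 200 counts, and comparison within barcode segments.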

Additional observations from a re-analysis of the deposited data

How the results depend on the processing

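With 1 library for each assay, the intervals hold counting error alone and leave out the spread between spots and between animals. Under 19 settings, 94 of 155 values moved by less than their interval, or by less than 1.5 times for counts of genes and peaks. No ratio among them crossed 1. The balance of higher and lower genes did turn with 200 members, at 290 higher and 212 lower, and against the 50 non-members given below. For peaks the balance turned against these 50 spots and within second segments, where the balance of genes did not turn. No paired analysis was possible because each assay had 1 library. With 50 members the RNA ratio was 2.31 for bone-forming cell genes, 3.78 for other collagens and 0.643 for neuron genes, and 1240 of 10364 genes (12%) were at least 2-fold lower. With 200 members these were 1.51, 2.63, 0.746 and 212 of 10846 (1.95%). With 400 muscle-rich spots left out the RNA ratios were 1.5, 2.4 and 0.752, and the promoter ratios 1.59 for other collagens and 0.628 for neuron genes. There 239 of 10074 genes (2.37%) and 2794 of 36678 peaks (7.62%) were higher. With 100 left out the neuron promoter ratio was 0.348. Without Col1a1 and Col1a2 in the score the RNA ratios were 1.57, 2.12 and 0.806, and the promoter ratios of other collagens and neuron genes 1.54 and 0.594. In that setting 187 of 10179 genes (1.84%) were higher. Of 40085 peaks, 2719 were higher (6.78%) and 6599 lower (16.5%). Against all other non-muscle spots, 572 of 12485 genes (4.58%) and 8351 of 79622 peaks (10.5%) were higher, and 991 genes (7.94%) and 20566 peaks (25.8%) lower. With at least 20 counts, 898 of 13436 genes (6.68%) and 11265 of 86516 peaks (13%) were higher, and 1216 genes (9.05%) and 23155 peaks (26.8%) lower. With at least 200 counts, 56 of 4759 genes (1.18%) and 187 of 7011 peaks (2.67%) were higher, and 73 genes (1.53%) and 608 peaks (8.67%) lower. Within the 13 second segments that held both groups (47 members, 133 comparison spots) the RNA ratios were 2.32 for other collagens and 0.921 for neuron genes, and the promoter ratios 1.1 for bone-forming cell genes, 1.67 for other collagens and 0.661 for neuron genes. Of 3352 genes and 4753 peaks counted there, 179 genes and 702 peaks were higher and 205 genes and 531 peaks lower. A window of 500 bp gave a collagen promoter ratio of 2.51. The 3 settings that follow were chosen after seeing the data. Leaving out the second segment with most members kept all results within these limits. Against the 50 non-members on the members' 5 leading second segments the RNA ratios were 1.58, 1.81 and 0.885, and the promoter ratios 1.89 for score genes, 1.07 for bone-forming cell genes, 1.67 for other collagens and 0.659 for neuron genes. Of 2341 genes and 4567 peaks counted there, 27 genes and 289 peaks were higher and 12 genes and 82 peaks lower. Choosing members by the other 5 score genes gave the ratios in the report. The causes of these shifts were not tested, other than that a smaller group or a higher minimum leaves fewer genes to count.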
